A study of Rattus norvegicus with 4 samples.

Results

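The vascular endothelial growth factor (VEGF) genes of the rat heart were followed here: the ligand genes Vegfa, Vegfb, Vegfc and Pgf, the receptor tyrosine kinase genes Flt1, Kdr and Flt4, and the neuropilin genes Nrp1 and Nrp2. These 9 genes were taken by symbol from the 32623 genes of a single-nucleus RNA count matrix, and each symbol matched 1 gene. The study sampled the infarct zone of hearts from Sprague Dawley rats after a sham operation or 1, 6 or 24 h after myocardial infarction, with 1 sample in each group. Infarction was made by tying off the left anterior descending coronary artery. The treatment labels of the 3 infarct samples add the word reperfusion, whereas the design text describes ligation alone for samples of these names, so whether flow had been restored is unsettled. How many rats went into a sample is not given in the sources used here. The matrix pools 4 libraries told apart by barcode suffixes 1 to 4, and no source ties a suffix to a sample. The libraries are therefore called library 1 to library 4, values are compared between classes of nuclei within a library and between libraries, and nothing is compared with sham or over time.

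VEGF ligands are secreted proteins that bind receptor tyrosine kinases on endothelial cells. VEGF-A, the product of Vegfa, is induced by low oxygen and drives vessel growth and permeability through VEGFR2, encoded by Kdr. VEGFR1, encoded by Flt1, binds VEGF-A, VEGF-B and placental growth factor, and in a soluble form it traps ligand. VEGF-C acts through VEGFR3, the product of Flt4, and is the main growth factor of lymphatic vessels. Neuropilins are co-receptors shared with the class 3 semaphorins. In heart muscle, cardiomyocytes are a known source of VEGF-A for the capillaries that run beside them.

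The matrix held 48637 barcodes and 108629374 UMIs (unique molecular identifiers, each counting 1 captured RNA molecule). After filtering, 41728 nuclei were used, and 28440 of them fell in clusters that could be named "-like" from marker genes, none of which was a VEGF gene. The 4 libraries had 6181 to 14287 nuclei and median depths of 1280, 591, 1826 and 2209 UMIs per nucleus. Library 2 stood apart: 88.6% of its nuclei could not be named, against 0.299%, 6.47% and 14.8% in libraries 1, 3 and 4, and the Vegfa spans between libraries are given with and without it. A median of 0.0777% of a nucleus's UMIs in library 1 was mitochondrial, against 0.498%, 1.32% and 1.10% in libraries 2 to 4. Between libraries, 264 barcode sequences were shared. The cardiomyocyte, fibroblast, capillary, venous and endocardial classes were held by different clusters in different libraries (the main cardiomyocyte clusters were 1 in library 1, another in library 2 and a pair in libraries 3 and 4), so in these classes a difference between libraries cannot be told apart from a difference in the nuclei that were clustered. The arterial, lymphatic, pericyte, T or NK cell and Schwann or neuronal classes were 1 cluster each. Free RNA, estimated from markers of other classes, was put at 33.7%, 45.0%, 55.5% and 56.4% of the UMIs of cardiomyocyte-like nuclei in libraries 1 to 4 and at 20.1%, 49.9%, 70.7% and 48.6% of those of capillary-like nuclei. Levels are UMIs per 1000000 UMIs of a class in a library (CPM), with 95% intervals that cover counting error only. With 1 library per sample there is no replicate and no test, and values are printed only for classes with at least 50 nuclei in a library.

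Promoter sequence is shown for the ligand gene Vegfa, for Kdr, the gene of the receptor through which VEGF-A signals, and for the lymphatic receptor gene Flt4. Each is the stretch before the annotated start, 5′ to 3′ on the gene's strand, from RefSeq on build GRCr8, and capitals mark GC boxes (GGGCGG on either strand). The coordinates are those of that reference and not of the matrix. Vegfa lies at chr9:22452604-22452853, Kdr at chr14:32571813-32572030 and Flt4 at chr10:34414584-34414833, all on the plus strand.
Vegfa: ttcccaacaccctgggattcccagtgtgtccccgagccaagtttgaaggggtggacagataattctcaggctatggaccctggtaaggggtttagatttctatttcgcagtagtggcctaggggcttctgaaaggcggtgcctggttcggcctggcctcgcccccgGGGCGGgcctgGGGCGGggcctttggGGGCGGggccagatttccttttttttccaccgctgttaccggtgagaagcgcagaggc
Kdr: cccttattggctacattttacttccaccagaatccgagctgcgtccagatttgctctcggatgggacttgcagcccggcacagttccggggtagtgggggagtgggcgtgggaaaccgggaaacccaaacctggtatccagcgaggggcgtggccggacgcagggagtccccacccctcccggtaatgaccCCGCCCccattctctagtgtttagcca
Flt4: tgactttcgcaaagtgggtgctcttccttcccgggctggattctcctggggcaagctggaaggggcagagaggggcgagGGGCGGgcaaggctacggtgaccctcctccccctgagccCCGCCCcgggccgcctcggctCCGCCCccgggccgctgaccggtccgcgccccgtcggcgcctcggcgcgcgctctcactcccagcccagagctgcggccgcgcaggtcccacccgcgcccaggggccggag
The printed stretches hold 3 GC boxes for Vegfa, 1 for Kdr and 3 for Flt4. GGGCGG occurred in 30.5% of 33469 promoter windows of the same reference, each taken as the 250 bases before the start. The core of the hypoxia response element (ACGTG or GCGTG, both strands) was matched 0 times before the start of Vegfa, 2 times before Kdr and 0 times before Flt4, and it occurred in 36.7% of the windows. The nuclear receptor half-site AAGGTCA (both strands) was matched in none of the 9 genes' promoters and in 3.99% of the windows. Only the 250 bases before 1 start of each gene were searched, so a match elsewhere would not be counted. For Flt1 and Nrp2 these bases lay wholly within the annotated gene. For Vegfb and Kdr 148 and 218 of them lay before it. These are matches of letters only, and the matrix holds no measure of binding.

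Vegfa, the hypoxia-induced ligand gene, was highest in cardiomyocyte-like nuclei. In cardiomyocyte-like nuclei its level was 3721 CPM (3680 to 3763) in library 1, 2948 (2826 to 3074) in library 2, 381 (363 to 400) in library 3 and 563 (541 to 585) in library 4. In each of the 4 libraries this was the highest level of any named class, and its interval did not overlap that of the next class. Against the pooled other named nuclei of the same library the level was 9.58, 2.99, 6.91 and 6.78 times as high in libraries 1 to 4, a median log2 difference of 2.60. Vegfa was the 1 member of 9 that was at least 2-fold higher in cardiomyocyte-like nuclei in all 4 libraries, a mark that 4.62% of the 9334 genes compared reached. Cardiomyocyte-like nuclei held 91.9%, 56.7%, 51.7% and 71.0% of the Vegfa UMIs found in named nuclei.

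At the level of single nuclei, 99.6%, 95.7%, 66.8% and 84.0% of cardiomyocyte-like nuclei in libraries 1 to 4 had at least 1 Vegfa UMI. T or NK cell-like nuclei, lymphocytes taken as the class that should have little of this transcript, gave 16.5%, 5.53% and 16.8% in libraries 1, 3 and 4. Median depths were 2578, 1818.5, 3673 and 4878.5 UMIs in the 4 cardiomyocyte-like sets and 1001, 1625.5 and 1934 in the lymphocyte sets. Thinned to 1000 UMIs per nucleus, the cardiomyocyte-like shares were 95.8%, 90.5%, 30.7% and 43.9%, and the lymphocyte shares were 14.6%, 2.93% and 6.83%. Thinned shares, here and below, cover only nuclei with at least 1000 UMIs, so shallower nuclei drop out of them. Among those nuclei, at equal depth, the cardiomyocyte-like share was thus above the lymphocyte share in each library that had both. It was high in libraries 1 and 2 and low in libraries 3 and 4.

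Between libraries Vegfa in cardiomyocyte-like nuclei moved far more than most genes. The level in library 1 was 9.77 times that in library 3 (9.30 to 10.3) and 1.26 times that in library 2 (1.21 to 1.32), and library 4 was 1.48 times library 3 (1.39 to 1.57). Libraries 1 and 2 were high and libraries 3 and 4 low, with no overlap of intervals between any 2 libraries. The log2 span from lowest to highest library was 3.25, at the 98.7th percentile of the 12979 genes measured in these nuclei. Of those genes 6.63% spanned at least 4-fold, and among the 9 members Vegfa, Flt1 and Nrp2 did. The summed level of 7 cardiomyocyte markers in the same nuclei was 31034, 22040, 12012 and 13428 CPM in libraries 1 to 4, so it moved the same way over a smaller range, and Vegfa per 100 of those marker UMIs was 12.0, 13.4, 3.17 and 4.19. The part of these markers and of mitochondrial share in the Vegfa span was not tested.

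Clusters within the class gave a similar split by library. The cluster that held most cardiomyocyte-like nuclei of library 1 had 3791 CPM of Vegfa, and that of library 2 had 3012. In libraries 3 and 4 the class was made of a pair of clusters, with 438 and 706 CPM in the larger and 281 and 418 in the deeper of them. The deeper cluster also occurred in library 1, where it had 2397 CPM, so within that single cluster library 1 was high and libraries 3 and 4 were low. This cluster had a median of 2993, 6184 and 7718 UMIs per nucleus in libraries 1, 3 and 4, and its endothelial markers summed to 1836, 718 and 1435 CPM, against 52.7 in the main cluster of library 1 and 257 and 234 in the larger cluster of libraries 3 and 4.

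Vegfa in other classes followed the same order of libraries only in part. In fibroblast-like nuclei it was 647, 1175, 93.7 and 184 CPM in libraries 1 to 4, and in pericyte-like nuclei, which wrap capillaries, 249, 1179, 28.4 and 70.9. In capillary-like nuclei it was 192, 863, 32.7 and 49.3 CPM. Library 2 was highest in each of these classes, whereas library 1 was highest in cardiomyocyte-like nuclei. Library 3 was lowest in all of them. The log2 span was 3.51 in fibroblast-like and 4.36 in capillary-like nuclei, and without library 2 it was 2.66 and 2.24. Vegfa per 100 cardiomyocyte-marker UMIs was 29.4, 54.8, 10.6 and 13.9 in fibroblast-like nuclei, above the ratio in cardiomyocyte-like nuclei in each library. In capillary-like nuclei the ratio was 8.18, 32.3, 1.99 and 3.05, below that of cardiomyocyte-like nuclei in libraries 1, 3 and 4 and above it in library 2. Lymphatic-like nuclei had 480, 42.6 and 54.9 CPM in libraries 1, 3 and 4, Schwann or neuronal-like nuclei had 594, 124 and 110, and endocardial-like nuclei had 147, 500, 19.7 and 49.5 in libraries 1 to 4. The free RNA estimate was 20.9%, 43.7%, 47.6% and 42.5% in fibroblast-like nuclei, 26.5%, 62.9%, 77.3% and 69.4% in pericyte-like nuclei, and 50.7%, 78.6% and 94.1% in the Schwann or neuronal-like nuclei of libraries 1, 3 and 4, and its part in these Vegfa levels was not tested.

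Vegfb, whose product binds VEGFR1 and is known for its abundance in heart muscle, was sparse in these nuclei, with 1012 UMIs in the whole matrix. Cardiomyocyte-like nuclei had 21.2 CPM (18.2 to 24.5), 59.3 (43.1 to 79.7), 13.6 (10.4 to 17.5) and 14.3 (10.97 to 18.1) in libraries 1 to 4. Library 2 was high, and the intervals of libraries 3 and 4 overlapped. Fibroblast-like nuclei had 8.60, 21.4, 6.01 and 6.57 CPM. The median log2 difference of cardiomyocyte-like nuclei over the others was 0.88, under the 2-fold mark. Cardiomyocyte-like nuclei held 82.3%, 62.9%, 27.6% and 53.7% of the Vegfb UMIs of named nuclei.

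Vegfc, the lymphatic growth factor gene, was highest in the endothelium of veins and arteries. Venous-like nuclei had 935 CPM (878 to 995) in library 1, 488 (458 to 519) in library 3 and 574 (544 to 605) in library 4. Arterial-like nuclei had 1622 (1392 to 1880), 369 (312 to 433) and 440 (393 to 491). Arterial exceeded venous in library 1 and fell below it in libraries 3 and 4, with a venous to arterial ratio of 0.576 (0.491 to 0.680), 1.32 (1.11 to 1.58) and 1.30 (1.15 to 1.48). The arterial set of library 1 had 61 nuclei. Capillary-like nuclei had 202, 149, 119 and 143 CPM in libraries 1 to 4, and fibroblast-like nuclei 120, 104, 75.9 and 81.6.

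Lymphatic-like nuclei, which carry the VEGF-C receptor gene, had little Vegfc, at 13.3, 29.2 and 18.3 CPM in libraries 1, 3 and 4. The venous level was 70.2 (23.9 to 341), 16.7 (9.74 to 31.5) and 31.4 (13.4 to 96.7) times the lymphatic level. Vegfc was at least 2-fold higher in venous-like and in arterial-like nuclei than in the other named nuclei in libraries 1, 3 and 4. Median log2 differences were 2.83 and 2.02. In venous-like nuclei 3 of 9 members passed that mark (Vegfc, Flt1 and Nrp2), against 2.53% of 12131 genes, and in arterial-like nuclei 3 of 9 (Vegfc, Flt1 and Flt4), against 1.8%. Venous-like nuclei held 50.2%, 35.2% and 50.6% of the named Vegfc UMIs, although the venous class of library 1 and that of libraries 3 and 4 were different clusters.

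Pgf, which encodes placental growth factor, a ligand of VEGFR1, had 1671 UMIs in the matrix. In capillary-like nuclei it was 1.37 CPM (0.166 to 4.95, from 2 UMIs) in library 1, 33.9 (19.0 to 55.9) in library 2, 28.7 (20.7 to 38.6) in library 3 and 45.9 (37.3 to 56.1) in library 4. Library 1 was low and did not overlap the other 3, whose intervals overlapped each other. The ratio of library 4 to library 1 was 33.5 (9.04 to 281), a wide interval set by the 2 UMIs. Among capillary-like nuclei of libraries 3 and 4, 1 sub-cluster had 50.6 and 58.2 CPM and the other main sub-cluster 19.0 and 29.7. Fibroblast-like nuclei had 10.03, 26.4, 16.1 and 25.5 CPM, and venous-like nuclei 0, 5.35 and 4.14 in libraries 1, 3 and 4. The 0 of library 1 allows up to 2.79 CPM (3 UMIs of the class total). Pgf was not 2-fold higher in capillary-like nuclei in all libraries, and its median log2 difference was 0.69.

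**Figure D1:**
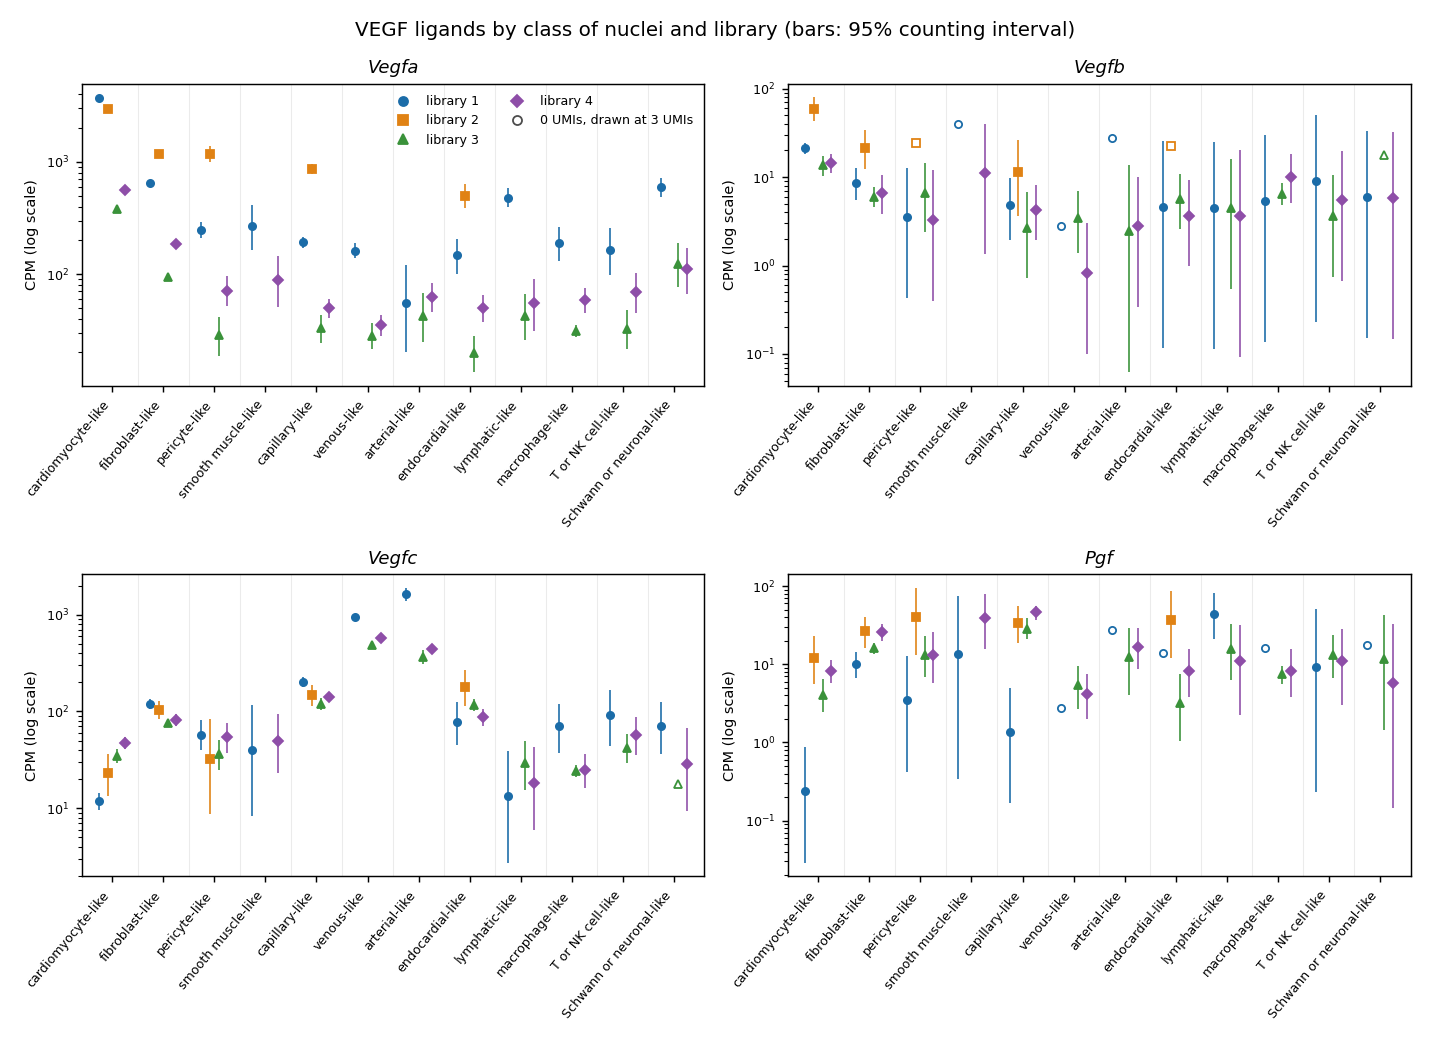
Levels of the 4 VEGF ligand genes as CPM on a log axis, by class of nuclei, for libraries 1 to 4. Points are 1 library each, bars are 95% counting intervals, and open symbols are classes with 0 UMIs drawn at 3 UMIs. Vegfa is highest in cardiomyocyte-like nuclei in all 4 libraries and drops from 3721 CPM in library 1 to 381 in library 3, whereas Vegfc is highest in venous-like and arterial-like nuclei.

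Flt1, the VEGFR1 gene, was spread across the endothelium of blood vessels and the endocardium. Capillary-like nuclei had 2075 CPM (2001 to 2150), 1080 (985 to 1181), 953 (904 to 1004) and 1238 (1191 to 1286) in libraries 1 to 4. Venous-like nuclei had 1988, 1547 and 1694 CPM and arterial-like nuclei 1366, 1304 and 1568 in libraries 1, 3 and 4. Endocardial-like nuclei, from the lining of the heart chambers, had 830, 1664, 1044 and 1528 CPM in libraries 1 to 4. The order of these classes changed between libraries: capillary-like nuclei led in library 1 together with venous-like nuclei (ratio 1.04, 0.987 to 1.10), whereas in libraries 3 and 4 they were below venous-like nuclei (0.616, 0.578 to 0.656, and 0.731, 0.695 to 0.768). Capillary over endocardial was 2.499 in library 1 and 0.649, 0.913 and 0.810 in libraries 2 to 4.

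Over all other named classes Flt1 in capillary-like nuclei was 8.73, 3.51, 3.36 and 1.90 times as high in libraries 1 to 4, a median log2 difference of 1.75 that missed the 2-fold mark in library 4. The other named classes include venous-like, arterial-like and endocardial-like nuclei, which also carry Flt1. When all blood-vessel endothelial nuclei were taken as 1 class, a choice made after seeing the data, the median difference was 2.37. In endocardial-like nuclei Flt1 was the 1 member of 9 at least 2-fold higher in all 4 libraries, against 1.23% of genes.

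Lymphatic-like nuclei had little Flt1, at 26.7, 112 and 135 CPM in libraries 1, 3 and 4, and fibroblast-like nuclei had 65.9, 225, 97.1 and 169 in libraries 1 to 4. Of capillary-like nuclei 76.6%, 63.7%, 64.0% and 70.4% had a Flt1 UMI, against 6.77%, 29.5%, 19.8% and 29.5% of fibroblast-like nuclei. Median depths were 970, 1114, 1355 and 1689 UMIs in the capillary-like sets and 1002, 1425, 2696 and 2553 in the fibroblast-like sets, and at 1000 UMIs the shares were 78.5%, 59.7%, 53.7% and 57.9% against 5.79%, 20.5%, 8.502% and 13.7%. T or NK cell-like nuclei had 767, 156 and 507 CPM of Flt1 in libraries 1, 3 and 4, while all 7 endothelial markers were seen in them with a summed level of 1716, 530 and 1278 CPM. In capillary-like nuclei those markers summed to 5170, 2854, 3116 and 3862 CPM, so Flt1 in the lymphocyte class moved with endothelial markers, whose part was not tested.

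In cardiomyocyte-like nuclei Flt1 was low and uneven, at 39.8, 108, 109 and 276 CPM in libraries 1 to 4. Library 4 was high and library 1 low, a log2 span of 2.52 at the 96.8th percentile. The spread lay partly between clusters: in library 1 the main cluster had 13.2 CPM and the deep cluster described for Vegfa had 670, and in libraries 3 and 4 the larger cluster had 54.1 and 72.7 and the deep cluster 191 and 470. Endothelial markers were likewise higher in the deep cluster than in the other cluster of the same library. Without the deep cluster the span was 2.14. After subtracting each library's own mean profile as free RNA, no Flt1 was left in cardiomyocyte-like nuclei of any library, so the span was 0. That subtraction was set to bring markers of other classes to 0, and genes that move with those markers go down with them. The source of the Flt1 in these nuclei was not tested.

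Kdr, the VEGFR2 gene through which VEGF-A signals, was highest in capillary-like and lymphatic-like nuclei. Capillary-like nuclei had 500 CPM (465 to 538), 219 (178 to 267), 213 (191 to 238) and 261 (240 to 284) in libraries 1 to 4. Library 1 was high, libraries 2 and 3 overlapped, and library 4 lay between with an interval that overlapped library 2. Lymphatic-like nuclei had 307 (238 to 388), 346 (293 to 405) and 329 (265 to 405) in libraries 1, 3 and 4, and all 3 intervals overlapped. The lymphatic to capillary ratio was 0.613 (0.472 to 0.785) in library 1, 1.62 (1.33 to 1.97) in library 3 and 1.26 (0.996 to 1.58) in library 4. Kdr in venous-like nuclei was 151, 178 and 237 CPM, and in endocardial-like nuclei only 27.5, 89.6, 45.1 and 67.8.

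The capillary to endocardial ratio was larger for Kdr than for Flt1 in each library, with no overlap of intervals. It was 18.2 (8.31 to 49.7), 2.45 (1.34 to 4.90), 4.73 (3.64 to 6.20) and 3.86 (3.02 to 4.99) for Kdr in libraries 1 to 4, and for Flt1 the intervals were 2.15 to 2.92, 0.552 to 0.764, 0.850 to 0.981 and 0.761 to 0.862. Kdr and Nrp2 were the 2 members of 9 at least 2-fold higher in capillary-like nuclei in all 4 libraries, against 1.71% of genes, with median log2 differences of 1.73 and 1.63. Without library 2, Kdr gave 2.02. Of capillary-like nuclei 37.5%, 19.9%, 24.9% and 32.5% had a Kdr UMI (35.2%, 16.6%, 17.3% and 21.0% when thinned to 1000 UMIs), against 2.09%, 6.41%, 3.69% and 4.48% of fibroblast-like nuclei (1.66%, 4.04%, 1.31% and 1.43% thinned). Cardiomyocyte-like nuclei had 71.4, 86.3, 59.8 and 111 CPM of Kdr, above fibroblast-like nuclei with 18.3, 39.0, 12.1 and 14.7 in each library. Because of their number and depth they held 35.3%, 26.1%, 15.3% and 23.8% of the named Kdr UMIs, beside 43.1%, 39.6%, 18.5% and 25.6% in capillary-like nuclei. The median difference of cardiomyocyte-like nuclei from the others was -0.24 for Kdr and 0.09 when class sums were scaled by median ratios, so its direction there depended on the scaling.

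Flt4, the VEGFR3 gene, was highest in lymphatic-like nuclei. These had 1297 CPM (1153 to 1455) in library 1, 1050 (957 to 1150) in library 3 and 1024 (908 to 1151) in library 4, and library 2 had too few lymphatic-like nuclei for a value. The interval of library 1 lay just above those of libraries 3 and 4, which overlapped. Next came arterial-like nuclei with 73.3, 79.2 and 118 CPM and capillary-like nuclei with 48.0, 72.6 and 79.1, and the lymphatic to capillary ratio was 27.0 (20.8 to 35.6), 14.5 (11.7 to 18.0) and 12.9 (10.7 to 15.8). Over all other named nuclei the level was 123, 73.0 and 30.7 times as high, a median log2 difference of 5.44. The markers that named this class, which do not include Flt4, were all seen and summed to 11937, 14102 and 9294 CPM in it, against 43.2, 298 and 117 in capillary-like nuclei.

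A Flt4 UMI was found in 73.9%, 78.6% and 79.2% of lymphatic-like nuclei in libraries 1, 3 and 4, at median depths of 1293.5, 2041 and 3132 UMIs. In fibroblast-like nuclei it was found in 0.426%, 0.838% and 1.09%. Thinned to 1000 UMIs the shares were 68.5%, 57.2% and 54.4% against 0.407%, 0.346% and 0.325%. Lymphatic-like nuclei held 64.6%, 50.1% and 32.8% of the named Flt4 UMIs, and the rest lay in other classes at lower levels. Macrophage-like nuclei had 0 UMIs of Flt4 in library 1, which allows up to 16.2 CPM, and 6.19 and 6.42 CPM in libraries 3 and 4.

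Among all 9 genes, 3 were at least 2-fold higher in lymphatic-like nuclei in libraries 1, 3 and 4 (Flt4, Nrp2 and Kdr), against 1.83% of 12131 genes, and 4 were at least 2-fold lower (Vegfa, Vegfc, Flt1 and Nrp1), against 2.82%. The receptor tyrosine kinase genes were therefore split in this class, with Kdr and Flt4 high and Flt1 low. Scaling by median ratios took Vegfa off the second list and moved no other gene of either list.

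Nrp1, the VEGF-A co-receptor gene, was found across endothelial, muscle and stromal classes. Capillary-like nuclei had 2070 CPM (1997 to 2145), 868 (783 to 959), 818 (773 to 866) and 900 (860 to 941) in libraries 1 to 4, endocardial-like nuclei 1037, 1493, 1387 and 1175, and venous-like nuclei 1390, 1183 and 1094 in libraries 1, 3 and 4. Library 1 was high in capillary-like nuclei and low in endocardial-like nuclei, so the capillary to endocardial ratio was 2.00 (1.74 to 2.30) there and 0.581, 0.590 and 0.765 in libraries 2 to 4. Cardiomyocyte-like nuclei had 965, 1049, 865 and 763 CPM, a narrow range whose largest ratio was 1.38 (1.27 to 1.49), and they held 56.0%, 44.9%, 21.3% and 29.6% of the named Nrp1 UMIs. Their log2 span of 0.46 was at the 23.8th percentile of genes, and it was 1.10 when class sums were scaled by median ratios. Lymphatic-like nuclei were lowest among the endothelial classes with 151, 119 and 87.8 CPM.

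Nrp2, the co-receptor gene known for VEGF-C binding on lymphatic vessels, had the opposite order. Lymphatic-like nuclei had 1466 CPM (1312 to 1633), 1309 (1204 to 1419) and 1083 (963 to 1213) in libraries 1, 3 and 4, and capillary-like nuclei 736, 443, 430 and 474 in libraries 1 to 4. The lymphatic to capillary ratio was 1.99 (1.76 to 2.26), 3.04 (2.72 to 3.41) and 2.28 (2.00 to 2.60) for Nrp2, whereas capillary over lymphatic was 13.7 (9.78 to 19.8), 6.88 (5.23 to 9.24) and 10.2 (6.87 to 16.0) for Nrp1. Venous-like nuclei had 430, 433 and 457 CPM of Nrp2, with overlapping intervals, and macrophage-like nuclei 265, 265 and 294. Endocardial-like nuclei, where Nrp1 was high, had 4.59 CPM of Nrp2 from 1 UMI in library 1 and 179, 85.2 and 71.5 in libraries 2 to 4. Cardiomyocyte-like nuclei had 12.2, 40.5, 75.2 and 86.8 CPM. Their log2 span of 2.13 was at the 94.4th percentile. It was 0 after free RNA was subtracted with the setting described for Flt1, and the source of this Nrp2 was not tested.

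**Figure D2:**
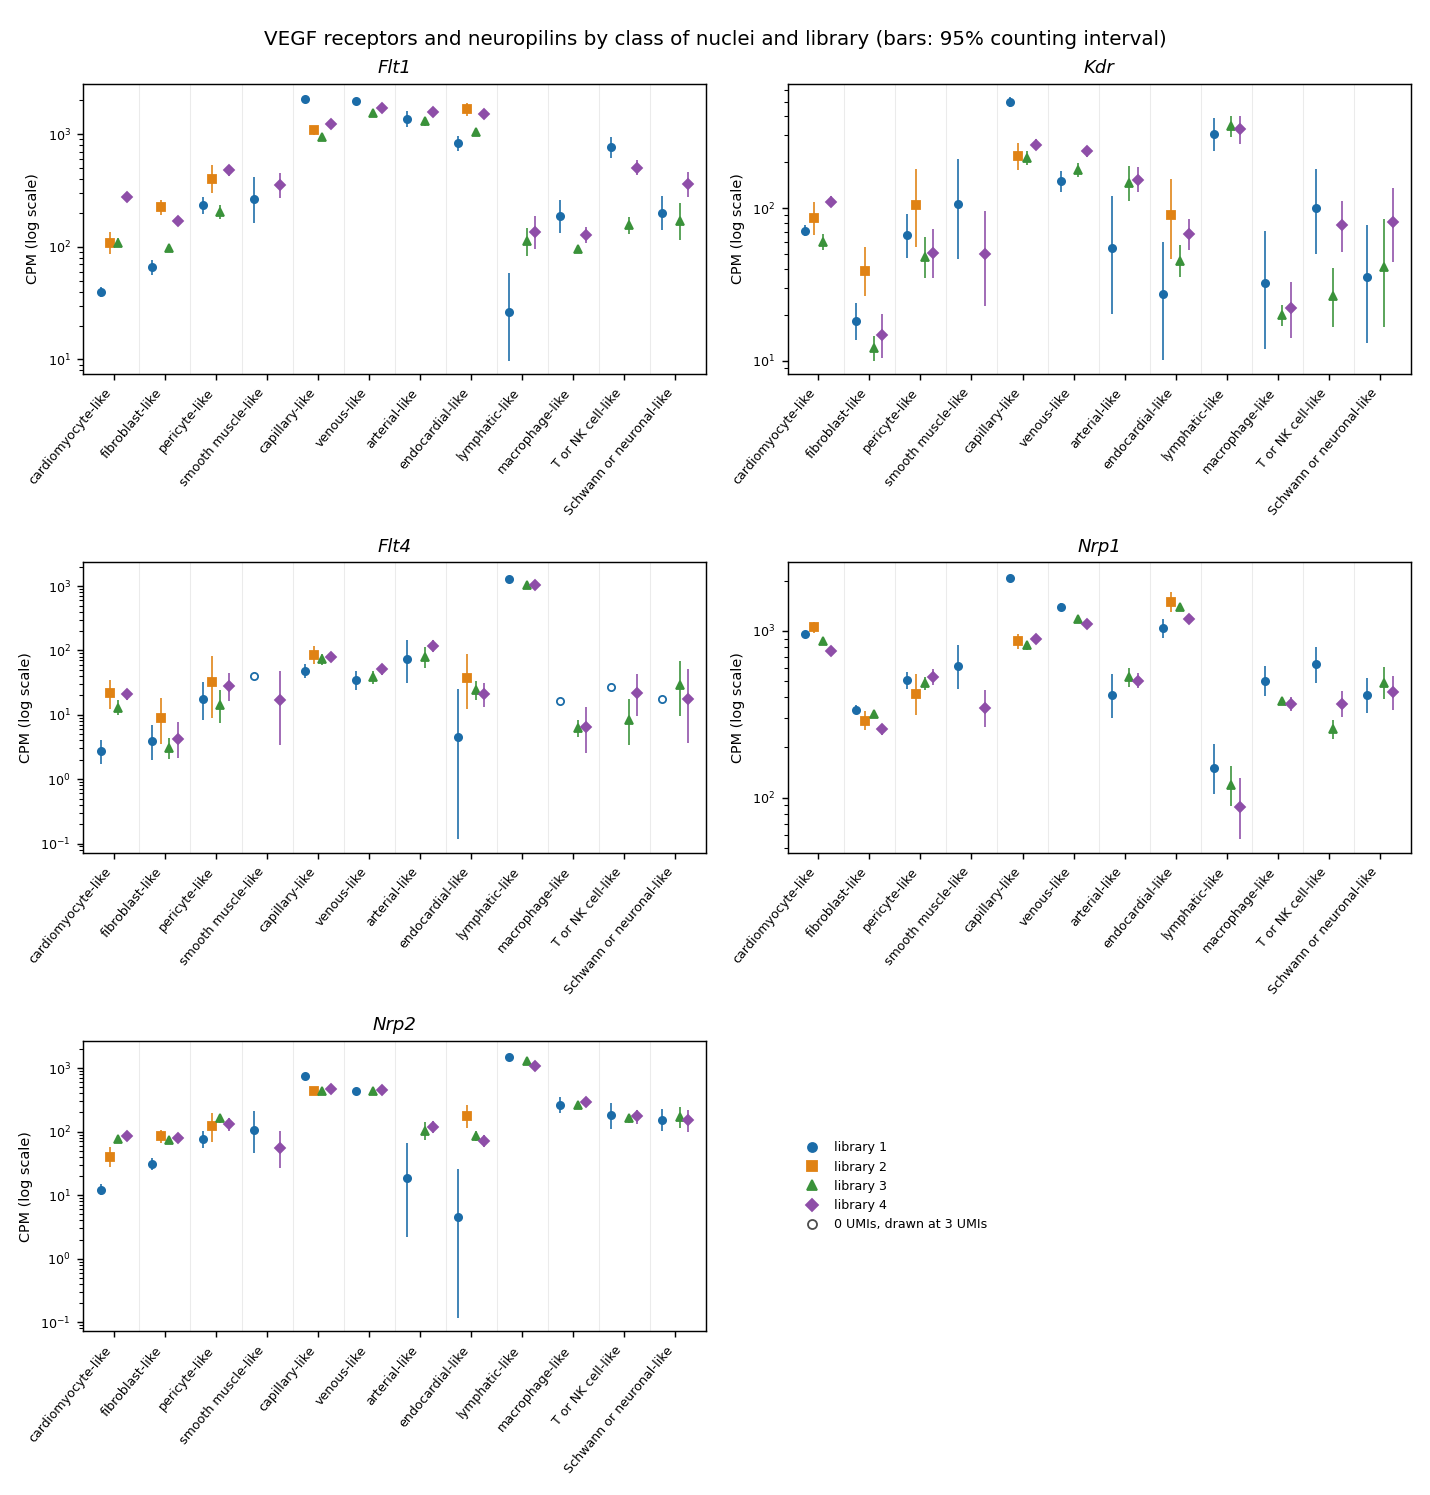
Levels of the 3 receptor and 2 neuropilin genes as CPM on a log axis, by class of nuclei, for libraries 1 to 4. Points are 1 library each, bars are 95% counting intervals, and open symbols are classes with 0 UMIs drawn at 3 UMIs. Flt4 and Nrp2 are highest in lymphatic-like nuclei in the 3 libraries that have them, where Flt1 and Nrp1 are low, and Flt1 is spread over capillary-like, venous-like, arterial-like and endocardial-like nuclei.

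In fibroblast-like nuclei Flt1, Kdr, Flt4 and Nrp2 were at least 2-fold lower than in the other named nuclei in all 4 libraries, 4 of 9 members against 3.85% of genes, and no member was 2-fold higher, against 2.71%. In cardiomyocyte-like nuclei 3 of 9 were lower (Vegfc, Flt1 and Nrp2), against 2.58%. Scaling by median ratios raised the median gene of cardiomyocyte-like nuclei by 0.39 on the log2 scale and left these 3 calls in place. Vegfa was at least 2-fold lower in capillary-like and endocardial-like nuclei in all 4 libraries, against 2.91% and 3.02% of genes, and in venous-like and arterial-like nuclei in libraries 1, 3 and 4, against 3.96% and 2.76%. In arterial-like nuclei that call was lost with scaling by median ratios. Vegfa was also at least 2-fold lower in macrophage-like, T or NK cell-like, dendritic-like, smooth muscle-like and B cell-like nuclei. This held in each of their libraries with at least 50 nuclei, so it was not particular to endothelium. The nuclei compared with included cardiomyocyte-like nuclei, which held most of the named Vegfa UMIs.

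The UMIs of a gene need not lie where its level is highest, because classes differ in number and depth. Cardiomyocyte-like nuclei held the largest share of Nrp1 UMIs in all 4 libraries, although their Nrp1 level was below that of endocardial-like nuclei in libraries 2 to 4, and within its interval in library 1. The share of Flt1 UMIs in capillary-like nuclei was 47.8% and 43.8% in libraries 1 and 2 and 13.8% and 20.7% in libraries 3 and 4.

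**Figure D3:**
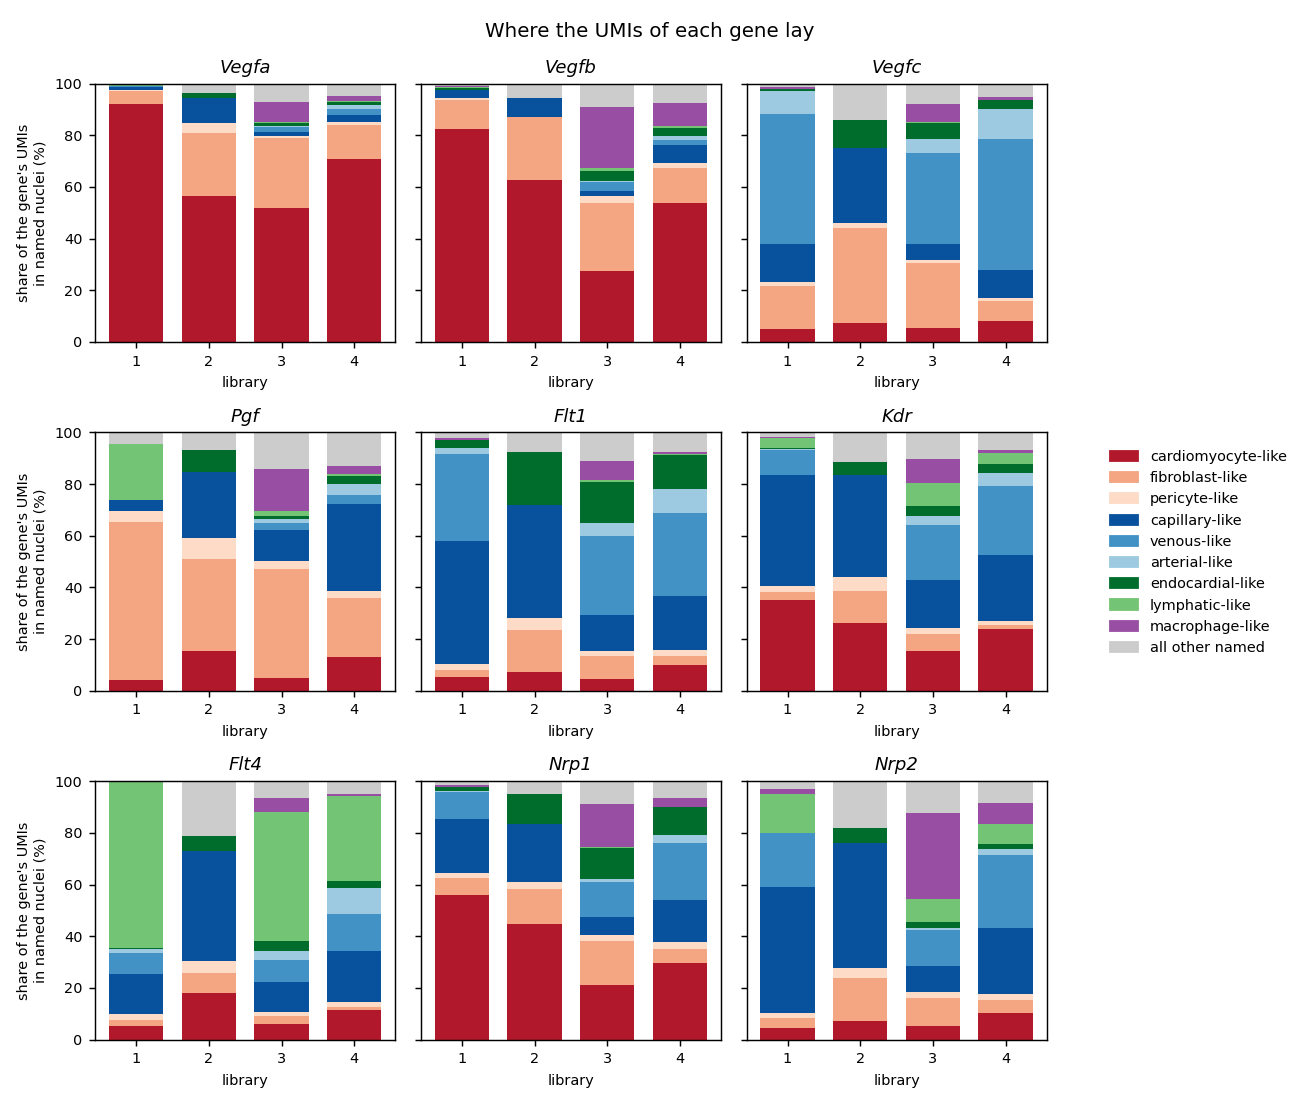
Share in percent of each gene's UMIs in named nuclei that lay in each class, as stacked bars for libraries 1 to 4 and each of the 9 genes. Cardiomyocyte-like nuclei hold 91.9% of Vegfa UMIs in library 1 and 51.7% in library 3, and lymphatic-like nuclei hold 64.6% of Flt4 UMIs in library 1 and 32.8% in library 4.

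With library 2 included, Vegfa had the widest span between libraries of the members measured in cardiomyocyte-like, fibroblast-like, capillary-like and endocardial-like nuclei. In fibroblast-like, capillary-like and endocardial-like nuclei its span was at the 99.5th, 99.8th and 99.5th percentile of all genes, at log2 values of 3.51, 4.36 and 4.10. Of all genes 5.8%, 6.99% and 13.1% spanned at least 4-fold in these classes, and the members that did were Vegfa in fibroblast-like nuclei, Vegfa and Pgf in capillary-like nuclei, and Vegfa and Nrp2 in endocardial-like nuclei. Without library 2 the Vegfa span was 3.25, 2.66, 2.24 and 2.40 in cardiomyocyte-like, fibroblast-like, capillary-like and endocardial-like nuclei, at the 98.8th, 98.0th, 96.2nd and 94.8th percentile. Vegfa was then below Pgf in capillary-like nuclei (2.30) and below Nrp2 in endocardial-like nuclei (2.71, resting on the 1 UMI of library 1). In capillary-like nuclei the Vegfa span was also 2.07 with at least 1000 UMIs per nucleus, 1.83 with doublets kept and 1.98 with 50 principal components, and in endocardial-like nuclei 1.52 with at least 1000 UMIs and 1.25 at Leiden resolution 2, each of these over 3 libraries. The receptor genes moved less in capillary-like nuclei, with spans of 1.11 for Flt1 (69.1st percentile) and 1.19 for Kdr (73.0th percentile). Both were highest in library 1, and there the level of Flt1 was 2.18 times (2.04 to 2.32) that of library 3. The capillary class of library 1 was almost wholly a sub-cluster of its own, and the summed level of 8 capillary markers there was 4629 CPM against 784, 1158 and 1979 in libraries 2 to 4, so library 1 was highest in receptor and marker levels alike. That sub-cluster had 6 of the 8 capillary markers raised against other endothelial nuclei, whereas the main capillary sub-clusters of libraries 2 to 4 had 0 or 1 and were named by comparison with non-endothelial nuclei. A sub-cluster of 89 nuclei in library 4 had 5 of 8, with 1872 CPM of Flt1 and 166 of Kdr, against 2077 and 503 in the sub-cluster of library 1. Against non-endothelial nuclei, the main sub-cluster of library 2 had 3 of 8 capillary markers raised, the fewest the naming allowed. Their mean log2 fold was 1.33, and that of the venous markers was 1.35, with 2 of 5 raised. Against other endothelial nuclei the means were 0.39 for capillary and -1.10 for venous markers. The part of the markers was not tested.

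**Figure D4:**
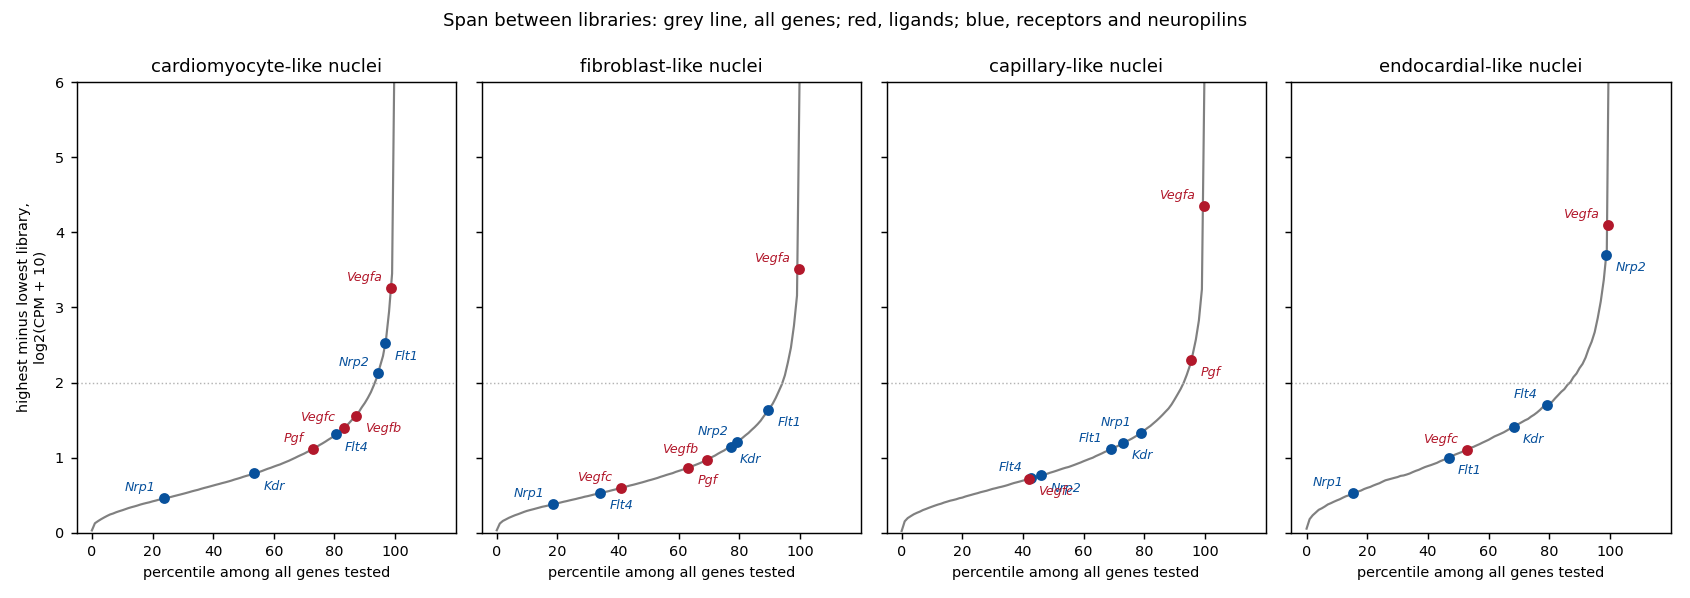
Log2 span from the lowest to the highest library, with 10 CPM added, for all genes in order of percentile (grey line) and for the VEGF genes (points, ligands red, receptors and neuropilins blue) in 4 classes of nuclei; the dotted line is 4-fold. With library 2 included, Vegfa lies at or above the 98.7th percentile in each class, and Nrp1 at the 23.8th percentile in cardiomyocyte-like and the 18.7th in fibroblast-like nuclei.

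Genes that act around the VEGF system were read from 8 lists. In cardiomyocyte-like nuclei, where Vegfa was highest, the nuclear receptors and coactivators of the ERR and PGC-1 list, known to induce Vegfa in muscle without the hypoxia factor, were high: 3 of 4 tested were at least 2-fold higher in all libraries, against 4.62% of all genes, and 0 lower, against 2.58%, with a median log2 difference of 2.85 against -0.38 for all genes. Ppargc1a, the PGC-1 alpha coactivator, had 613, 353, 245 and 281 CPM in libraries 1 to 4, and Esrrg, an estrogen-related receptor, 424, 370, 222 and 234. Both were highest in library 1 and lowest in library 3, as Vegfa was, over a range of less than 4-fold. The summed cardiomyocyte markers were also highest in library 1 (31034 CPM) and lowest in library 3 (12012 CPM). This order was thus not particular to the ERR and PGC-1 genes, and their part in the Vegfa level was not tested. Of the oxygen sensing list 0 of 7 tested were higher and 0 lower (median -0.60), and of 11 hypoxia target genes beside Vegfa 0 were higher and 0 lower (median -0.43). Between libraries 4 of 12 hypoxia targets spanned at least 4-fold in these nuclei, against 6.63% of genes. Of 9 receptor regulators 4 did so too, and of 8 oxygen sensing genes 0. The direction of these spans was not compared with that of Vegfa, and the part of these lists in Vegfa was not tested. Of the VEGF-responsive genes 1 of 7 was higher, the calcineurin regulator Rcan1, with 61.1, 78.2, 80.7 and 76.5 CPM.

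VEGF-C is made as a precursor that the protease ADAMTS3 cuts. In fibroblast-like nuclei 3 of 4 tested genes of the VEGF-C and VEGF-D processing list were at least 2-fold higher, against 2.71% of genes, and 0 lower, against 3.85%, with a median of 1.62 against 0.11 for all genes. Vegfd, the gene of the related lymphatic ligand, had 189, 88.0, 135 and 124 CPM there, Adamts14 had 128, 86.8, 49.3 and 43.3, and Adamts3 had 77.4, 28.9, 43.1 and 53.0. Vegfc itself was higher in venous-like and arterial-like nuclei, where the processing list gave 0 higher and 2 lower, and 1 higher and 0 lower, against 2.53% and 3.96% of genes in the former and 1.8% and 2.76% in the latter. The 1 gene higher in arterial-like nuclei was Pcsk5, a proprotein convertase, with 917, 304 and 397 CPM in libraries 1, 3 and 4.

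Capillary-like nuclei had 2 of 9 tested receptor regulators higher and 0 lower (median 0.69 against -0.00), against 1.71% and 2.91% of genes: Ptprb, the endothelial phosphatase VE-PTP, with 1566, 840, 1056 and 1451 CPM, and Efnb2, the ephrin that helps VEGF receptors to internalise. Dll4, a Notch ligand known to be induced by VEGF-A, was the 1 higher of 7 VEGF-responsive genes, with 149, 151, 50.7 and 94.3 CPM. Of 19 receptor signalling genes 1 was higher, of 10 neuropilin partners 2, and none of either was lower. In venous-like nuclei 3 of 9 regulators were higher (Ptprb, Clec14a and Mmrn2) and 3 of 20 signalling genes, led by Nos3, the endothelial nitric oxide synthase, with 609, 548 and 734 CPM, against 2.53% of genes. Of the regulators 0 were lower and of the signalling genes 1, against 3.96% of genes. Of 9 VEGF-responsive genes 1 was higher and 1 lower (median -0.50 against -0.05), and of 12 neuropilin partners 2 were higher and 1 lower. In arterial-like nuclei 3 of 9 regulators and 2 of 9 VEGF-responsive genes were higher, Dll4 among them with 211, 136 and 232 CPM, against 1.8% of genes. None of either was lower, against 2.76% of genes. Of 20 signalling genes 1 was higher and 1 lower, and of 12 neuropilin partners 3 were higher and 2 lower. Sema3g, 1 of these 3, was also a marker used to name the arterial class, so its call is not independent of the naming.

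In lymphatic-like nuclei 3 of 12 neuropilin partners were higher and 1 lower (median 0.03 against -0.05), against 1.83% and 2.82% of genes. Sema3a, a class 3 semaphorin that binds Nrp1, had 1475, 1679 and 2344 CPM in libraries 1, 3 and 4, and Sema3d, another semaphorin, 1422, 651 and 757. Nrp1 itself was low in these nuclei. The lower gene was Sema3c. Angpt2, the antagonistic Tie2 ligand, and Unc5b, a netrin receptor, were the 2 higher of 9 VEGF-responsive genes, with 262, 231 and 388 CPM and 729, 467 and 629 CPM. Hif1a, the hypoxia-inducible factor subunit, was the 1 higher of 9 oxygen sensing genes, with 240, 552 and 633 CPM.

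Genes whose levels were most like each member were sought over 45 sums of a class in a library, which share libraries, depth and free RNA, so the Pearson correlations of log2 levels are descriptions. Of 10572 genes compared, those most like Vegfa were the cardiomyocyte genes Rbm20 (0.86), a splicing factor, Ldb3 (0.86) and Mybpc3 (0.85), sarcomere proteins, the last of them a marker used to name the class. Flt1 was closest to Nos3 (0.93), Myrip (0.91) and Cmtm8 (0.91), Kdr to Tspan12 (0.86), Magi1 (0.86) and Kank3 (0.85), and Flt4 to Adgrg3 (0.91), Sema3a (0.85) and Btbd3 (0.84). Vegfc was closest to Wt1 (0.82), Sybu (0.81) and Tmod3 (0.79), and Pgf to Adm (0.74), Phf13 (0.67) and Haus7 (0.66), where Adm encodes the vascular peptide adrenomedullin. Vegfb was closest to Trim72 (0.73), Ndrg4 (0.70) and Pcnt (0.69), Nrp1 to Adgrl2 (0.77), Ano2 (0.76) and Lifr (0.75), and Nrp2 to Tspan14 (0.76), Arhgap27 (0.76) and Sh3bgrl2 (0.73). Among the members themselves the highest values were Vegfc with Flt1 (0.77), Kdr with Flt4 (0.74) and Flt1 with Nrp1 (0.67), while Nrp1 with Nrp2 gave -0.14 and Vegfa with Flt1 -0.24.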

How the data were processed

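Raw UMI counts per gene and nucleus were used as deposited, in a single matrix that pools 4 libraries. The matrix names cellranger 5.0.1, per the file headers. The submitters' processing notes name Cell Ranger 6.1.1, Seurat and rn7, so which build lies behind the counts is unsettled. Nuclei were isolated from heart tissue by Dounce homogenisation and libraries made with a 10x 3' kit, per the labels' protocols.

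Nuclei with at least 500 UMIs and 300 genes and at most 10% mitochondrial UMIs were kept, and the highest doublet scores were removed per library at 0.8% per 1000 nuclei. Clustering used 2000 variable genes (the 9 VEGF genes left out), 30 principal components, 15 neighbours and Leiden resolution 1, without integration, and endothelial nuclei were clustered again. A cluster was named from at least 3 detected markers of a class, by a rule chosen with the clusters in view. Endothelial clusters were named against other endothelial nuclei where that gave 3 raised markers; the main capillary clusters of libraries 2 to 4 (0 or 1 of 8) and the venous cluster of library 1 (2 of 5) did not, and were named against non-endothelial classes. The markers Ttn, Pecam1, Cd36, Ackr1, Cd79a and Hba-a1 and the list gene Ccbe1 were not analysed here. Members, lists and markers were chosen with earlier results of these data known.

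UMI sums per class and library were scaled to the class's total (CPM), with 10 CPM added before logarithms. Each class was compared with all other named nuclei of its library, for genes with at least 30 UMIs in both together in every library. A gene was called at 2-fold in every library with at least 50 nuclei of the class, or at 4-fold between the highest and lowest library for spans. Intervals are exact Poisson for levels, conditional binomial for ratios and Clopper-Pearson for shares, at 95%, and cover counting error only. A count of 0 is read as up to 3 UMIs. No p-value was computed, because there is 1 library per sample and no map from suffixes to samples. The 9 members were always named. The 3 genes most like each member were named by Pearson correlation over sums of at least 50000 UMIs, among genes with at least 500 UMIs, and of each list the 2 highest and 2 lowest genes could be named. Genes named beyond that in a count of called genes were chosen after their values were seen. Free RNA was estimated by subtracting each library's profile until the markers of other classes came to 0. The calling was also run on simulated counts with known changes. These varied by counting error only, without free RNA or differences between clusters, so that run does not cover either. Tools were scanpy 1.11.5, leidenalg 0.10.2, scikit-learn 1.9.0, numpy 2.4.6, scipy 1.17.1 and pandas 2.3.3 in python 3.11.15, and matplotlib 3.10.9.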

Additional observations from a re-analysis of the deposited data

Results flagged for a closer look

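Nuclei of library 2 with no class enter no comparison above, yet the VEGF genes were detected in them. Their levels were 1359 CPM for Vegfa, 12.7 for Vegfb, 90.6 for Vegfc and 45.6 for Pgf. For the receptor genes they were 420.2 CPM for Flt1, 104 for Kdr and 19.9 for Flt4, and for the neuropilin genes 523 CPM for Nrp1 and 148 for Nrp2. Each is above the limit that a count of 0 allows (3 UMIs), a mark that free RNA can also pass. In the named classes of library 2 free RNA was put at 29.4% (endocardial-like) to 62.9% (pericyte-like) of UMIs. Its part in the levels of these unnamed nuclei was not tested. Most of these nuclei were in a cluster of 11485 nuclei, 11407 of them from library 2, with a median of 578 UMIs. The Vegfa level lay between that of fibroblast-like nuclei (1175 CPM) and cardiomyocyte-like nuclei (2948 CPM) of the same library.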

How the results depend on the processing

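None of 132 alternative values over 14 comparisons of a class with the other named nuclei changed sign. Vegfa in cardiomyocyte-like nuclei (log2 2.60) was 2.19 with doublets kept, 4.13 with free RNA subtracted, 2.92 with median-of-ratios scaling, 2.76 with 1 CPM added and 2.89 without the cluster of highest depth. In the scaling by median ratios used for the member calls it was 2.84. Flt1 in capillary-like nuclei (1.75) was 2.07 with 50 principal components and 2.59 with free RNA subtracted, and, with choices made after seeing the data, 2.37 over all blood-vessel endothelial nuclei and 1.56 without the sub-cluster of low depth. Kdr in capillary-like nuclei (1.73) was 2.77 with free RNA subtracted and 2.02 with library 2 left out. Flt4 in lymphatic-like nuclei (5.44) was 5.12 with doublets kept, 6.34 with free RNA subtracted and 6.09 with 1 CPM added. The span of Vegfa in cardiomyocyte-like nuclei (3.25) was 3.73 with doublets kept, 2.59 with free RNA subtracted, 3.99 with median-of-ratios scaling and 3.05 without the deepest cluster. The span of Flt1 in capillary-like nuclei (1.11) was 1.28 with doublets kept, 0.89 with 50 principal components, 0.55 with free RNA subtracted, 1.38 with median-of-ratios scaling, 0.88 over all blood-vessel endothelial nuclei and 1.49 without the low-depth sub-cluster. The cause was not tested. The span of Vegfa in capillary-like nuclei (4.36) was 2.07 at 1000 UMIs per nucleus, 1.83 with doublets kept, 1.98 with 50 principal components and 2.24 without library 2. In endocardial-like nuclei it (4.10) was 1.52 at 1000 UMIs, 1.25 at Leiden resolution 2 and 2.40 without library 2.

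Gene counts depended on the added CPM. With 1 CPM in place of 10, genes lower in cardiomyocyte-like nuclei numbered 600 against 241 (68 with median-of-ratios scaling), in capillary-like 472 against 272, in lymphatic-like 947 against 342, in endocardial-like 515 against 282, in fibroblast-like 558 against 359, in venous-like 1247 against 480 and in arterial-like 894 against 335. Genes past the 4-fold span numbered 3578 against 861 in cardiomyocyte-like, 2273 against 767 in capillary-like, 3016 against 1299 in endocardial-like (859 without library 2), 2698 against 754 in fibroblast-like and 1598 against 584 in venous-like nuclei. With at least 100 UMIs per gene they numbered 309 against 692 in lymphatic-like and 401 against 942 in arterial-like nuclei. Without library 2, 182 genes against 115 were higher in endocardial-like nuclei. Median-of-ratios scaling changed 3 of 63 calls of members. Vegfa was no longer 2-fold lower in lymphatic-like and arterial-like nuclei, and Nrp1 became so in fibroblast-like nuclei. Of the 28 values called higher or lower, 0 changed sign. Each of these lay at least 2-fold from the other nuclei in every library, so a smaller shift could not have changed its sign. Among values not called, Kdr in cardiomyocyte-like nuclei changed sign. No paired analysis was possible because each group has 1 sample and libraries are not tied to samples.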
